A study of Mus musculus with 8 samples.

Results

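A set of 26129 autosomal regions had a methylation peak in both E14.5, both adult stem cell and both enterocyte libraries of the mouse small intestine and in neither E12.5 library. They were chosen from the peak calls themselves, so the absence of E12.5 peaks and the presence of later ones describe the set and are not findings. To find them, the 8 peak lists were merged wherever peaks shared at least 1 bp, which gave 475861 regions, 471333 of them on the 19 autosomes. The members made up 5.54% of the autosomal regions and 32.0% of the 81673 called in all 6 E14.5, stem cell and enterocyte libraries, named the later libraries here. Of the rest of the 81673, 31019 had a peak in 1 E12.5 library and 24525 in both, and the latter are the regions called in all 8 libraries against which the members are described.

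The libraries came from a methyl-CpG-binding domain (MBD) pull-down, in which a protein domain that binds methylated CpGs captures methylated fragments for sequencing. Each of 4 groups had 2 biological replicates, all from small intestine of mice of mixed C57BL/6 CD1 background. Embryonic epithelium of stages E12.5 and E14.5, named by embryonic day, was sorted as EpCAM+ CD31- CD45- DAPI- cells. Adult cells were from Lgr5EGFP-Cre-ERT males at postnatal day 60. Lgr5+ intestinal stem cells (ISC) were sorted for high EGFP, and enterocytes as EpCAM+ CD31- CD45- DAPI- cells, a gate on epithelium in general. Villi and crypts of the adults were first separated by shaking. Whether animals were pooled is not stated in the labels. No Cre induction is mentioned in the labels, and they leave out which sex the embryos were. Peak lists of genomic DNA hold no expression, so the labelled cell types were not checked against marker genes, and all positions are on mm9.

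DNA methylation at CpGs is written by the Dnmt enzymes and removed through oxidation by the Tet enzymes or by dilution over cell divisions. In most somatic mouse tissues the bulk of CpGs outside CpG islands is methylated, and tissue-specific differences lie mainly at enhancers and other distal elements. The gut epithelium derives from endoderm. At the earlier stage it is a pseudostratified tube, and villi begin to emerge about the later stage. Stem cells expressing Lgr5, a Wnt target and receptor for R-spondin, later settle at the crypt base and give rise to the absorptive enterocytes of the villus. An MBD pull-down responds to the number and density of methylated CpGs on a fragment, so a peak marks a stretch rich in them relative to its surroundings. It gives no percent methylation.

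The E12.5 libraries were the deepest and had the shortest lists. They held 55237390 and 55442400 tags with 100314 and 84990 peaks, while the later libraries held 31438314 to 43343543 tags with 164157 to 338262 peaks. At E12.5, 9.84% and 7.46% of tags lay in peaks, against 23.8% to 38.9% in the later libraries, and the median fold enrichment of a peak was 4.42 and 4.63, against 4.74 to 7.71. Both E12.5 libraries therefore had less enrichment than every later one, and a gain of methylation at the members cannot be told apart from the lower sensitivity of the E12.5 lists. The reverse pattern, a peak in both E12.5 libraries and in no later one, was found at 620 autosomal regions. When each list was held to its 84990 highest-scoring peaks, 3190 regions had the pattern of the members (14.3% of those called in the later libraries) and 4146 the reverse. The 2 counts are not like for like, since a member needs calls in 6 libraries and the reverse pattern in only 2. Equal length also shortens the later lists most, which removes calls that a member needs and that the reverse pattern forbids. Of those 3190, 2872 (90.0%) overlapped a member of the full lists. With the stricter 50% of each list by score 11460 regions had the pattern, or 33.3% of those called in the later libraries. Only 52.9% of the 11460 overlapped a member, so these are in large part other regions. Of the full-list members, 23.2% overlapped 1 of the 11460. The count also depended on each E12.5 library. Without E12.5 replicate 1 it was 44418 (54.4% of the regions called in the later libraries) and without replicate 2 it was 38859 (47.6%).

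The members were shorter than the regions called in all 8 libraries and held fewer tags, but their fold enrichment was nearly the same. In E14.5 replicate 1 the median called length per region was 552 bp for members and 832 bp for regions called in all 8. In E14.5 replicate 2 these medians were 352 and 553 bp. The ISC libraries gave 522 against 732 bp and 608 against 869 bp, and the enterocyte libraries 868 against 1133 bp and 692 against 955 bp. The ratio was above 1 in 6 of 6 libraries, 1.43 ± 0.0945 (mean ± SD over the 6 libraries), and ranged from 1.31 to 1.57. Length is not independent of the peak calls that chose the members, so no test was made, and the part of list length in the difference was not tested. With lists of equal length the ratio was 1.25. Called lengths also moved with the fragment size estimated by the peak caller, which was smallest in E14.5 replicate 2 (57 bp) and largest in enterocyte replicate 1 (164 bp), so lengths are compared within a library.

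Merged regions had the same order. The median width over all lists was 919 bp for members, with quartiles of 760 and 1230 bp. It was 1045 bp for regions with 1 E12.5 peak and 1225 bp for those called in all 8. Merging only the 6 later lists, so that no E12.5 peak could extend a region, left the medians at 919, 1032 and 1203 bp. The median over all autosomal regions was 560 bp. In 72.2% of members each later library had a single peak, against 56.2% of the regions called in all 8. The strongest summits of the 6 libraries lay within 200 bp of each other in 43.5% of members, with a median spread of 223 bp, against 26.4% and 320 bp for the regions called in all 8. A member can therefore join peaks that sit beside each other in different libraries.

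Tags scaled to library size (RPM, the tags of a region over all tags of its library times 1000000) gave medians of 1.27 and 1.03 for members at E14.5, 1.11 and 1.43 in ISC, and 1.36 and 1.35 in enterocytes. The same medians for regions called in all 8 were 2.14 and 1.69, 1.70 and 2.29, and 2.01 and 2.09. The ratio of the medians was 1.58 ± 0.0763 (SD over 6 libraries). In numbers of tags, the median member held 36 to 59 tags per later library. Per kb of called length the ratio fell to 1.11 ± 0.0218, so most of the difference in tags went with length.

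Fold enrichment is the authors' value for each peak, relative to the local background of its own library. For members the median of the best peak was 6.76 and 8.46 at E14.5, 6.23 and 7.04 in ISC, and 4.78 and 5.77 in enterocytes. For regions called in all 8 it was 7.06 and 8.46, 6.35 and 7.08, and 5.03 and 6.06. The ratio was 1.03 ± 0.0233 (SD over 6 libraries), and in E14.5 replicate 2 the medians were equal. With lists of equal length the ratio was 0.962, so that members then had the higher fold. The middle 50% of members in that library spanned 6.89 to 10.3, and that of the regions called in all 8 spanned 6.91 to 10.3. Regions with a peak in 1 E12.5 library lay between the other classes in length in every later library, while their fold lay within 1.00 to 1.03 times that of the members.

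**Figure D1:**
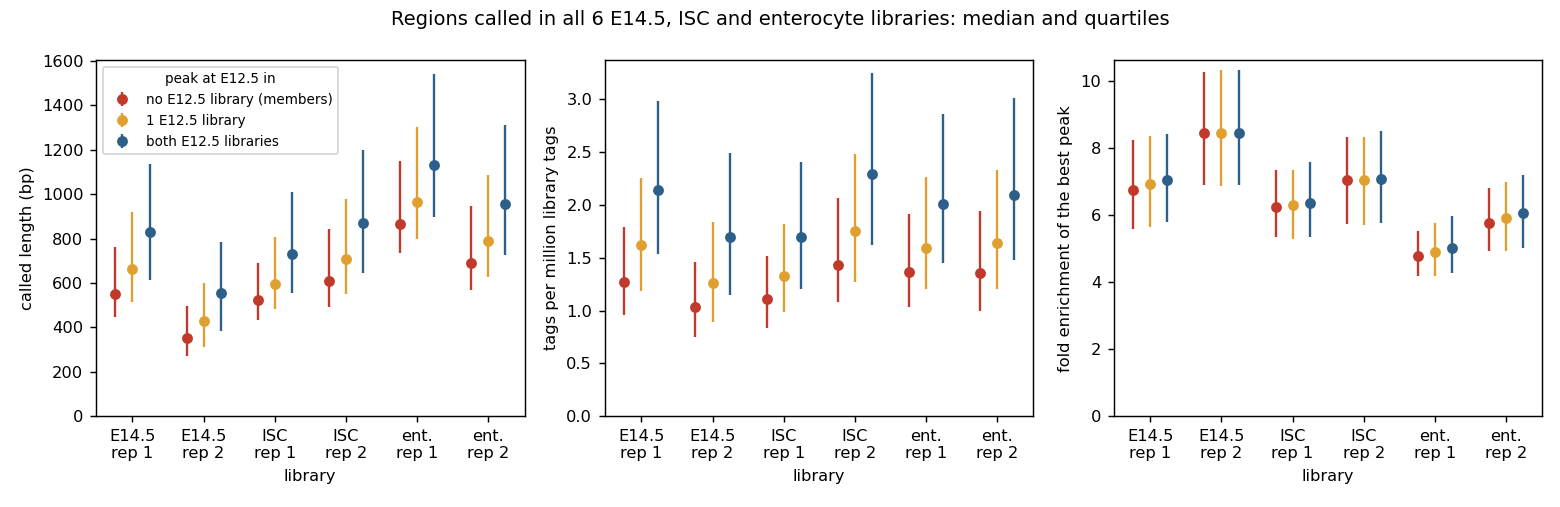
Called length in bp, RPM and fold enrichment of the best peak (y axes) in each of the 6 later libraries (x axis), as median (point) and quartiles (line) for regions with a peak in no, 1 or both E12.5 libraries. Length and tags step up with the number of E12.5 libraries in every library, for example from 552 to 832 bp in E14.5 replicate 1, while fold stays level, at 8.46 in all 3 classes of E14.5 replicate 2.

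The share of members among the 81673 regions fell steadily with length. Regions were placed in 10 equal classes by their mean rank over the later libraries. Among the shortest class 60.9% had no E12.5 peak (95% Wilson interval 59.8 to 61.9), and among the longest 12.7% (11.96 to 13.4). Ranking by tags gave 61.9% and 11.8%. Intervals here cover counting error only. Ranking by fold gave no such order, with shares between 28.7% and 38.3% in the first 9 classes and 18.9% in the highest. Long regions had lower fold, since the median fold in E14.5 replicate 1 was 7.81 in the shortest class and 5.38 in the longest. With 3 equal classes of each measure, the share of members fell from 53.3% to 41.2% from low to high fold among the shortest regions, from 39.4% to 22.4% in the middle length class and from 23.2% to 10.8% among the longest. At like length, therefore, members were also the regions of lower fold.

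By score, the caller's transformed p-value, members stood at a median percentile of 54.8 to 72.8 within the later lists, against 81.8 to 91.0 for regions called in all 8. Of the members, 6068 (23.2%) were in the upper 50% of all 6 later lists, 1383 (5.29%) in the top 25% and 52 (0.199%) in the top 5%. Of the regions called in all 8, 64.3%, 34.6% and 6.69% were. Strong regions could still lack an E12.5 peak, since 525 of the 8168 regions in the highest class by lowest percentile were members (6.43%, Wilson interval 5.92 to 6.98).

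**Figure D2:**
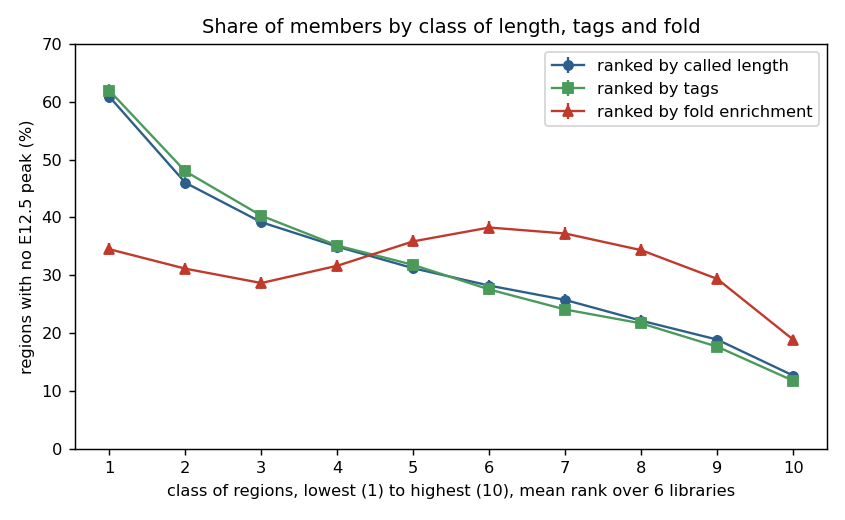
Share of regions with no E12.5 peak (y axis, percent, with 95% Wilson intervals) in 10 equal classes of the 81673 regions called in the later libraries (x axis), ranked by called length, tags or fold enrichment. The share falls from 60.9% to 12.7% with length and from 61.9% to 11.8% with tags, while by fold it stays between 28.7% and 38.3% until the highest class.

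Calls in every adult library were found at a minority of the regions called at E14.5 and not at E12.5. Of the 113072 autosomal regions with a peak in both E14.5 and neither E12.5 library, 23.1% were called in all 4 adult libraries and are the members. A further 22.6% were called in 3 adult libraries, 21.1% in 2, 18.0% in 1 and 15.2% in none. Over all 207250 regions that both E14.5 libraries called, the share called in all 4 was 39.4%, and over the 32432 also called in both E12.5 libraries it was 75.6%. The share called in all 4 was higher where the E14.5 peaks were stronger, with no, 1 or both E12.5 libraries called. In the weakest of 10 classes, 8.41% of the regions without an E12.5 peak were called in all 4, against 34.3% of those with both. In the strongest class 80.2% of 2880 regions without an E12.5 peak were, 89.2% of those with 1 and 94.1% of those with both. The order of the 3 sets held in all 10 classes. Absence from the E12.5 lists chose these sets, so the gap is a description.

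**Figure D3:**
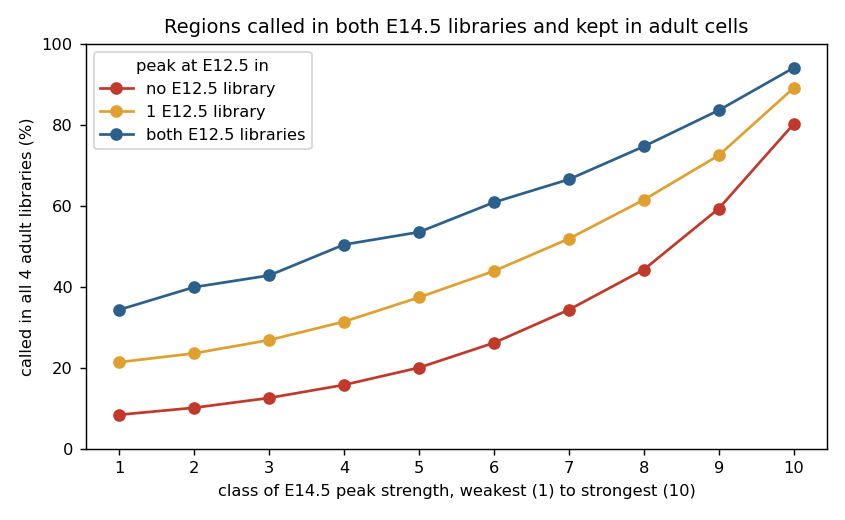
Share of regions called in both E14.5 libraries that were called in all 4 adult libraries (y axis, percent), by class of the lower E14.5 score percentile (x axis) and by number of E12.5 libraries with a peak. Regions without an E12.5 peak lie lowest in every class and rise from 8.41% to 80.2%.

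Among the later libraries, members did not show 1 direction of change from E14.5 to adult cells. With RPM, all 4 adult libraries lay above both E14.5 libraries at 3922 members (15.0%), against a background of 11.7% over the regions called in the later libraries and 8.72% of those called in all 8. All 4 lay below at 736 members (2.82%), against 3.22% and 3.72%. The median log2 difference of adult minus E14.5 was 0.19 for members and 0.07 for regions called in all 8. Scaled to the tags in regions called in all 6 later libraries, the median was 0.05 for members and -0.07 for regions called in all 8, with 11.8% of members above, against a background of 9.01%, and 7.84% below, against 9.98%. Per kb of called length it was -0.37 and -0.35, with 2 members above (background 0.00490%) and 34.4% below, against a background of 35.4%. The direction thus depended on the scale, and tags were counted over intervals that each library set for itself. With 2 libraries against 4 the smallest p of an exact two-sided permutation test is 0.133, and none was made. Leaving out a library moved the share above in both classes. Without E14.5 replicate 1 it was 49.0% of members and 38.7% of regions called in all 8, and without E14.5 replicate 2 it was 23.3% and 13.9%. Without ISC replicate 1 it was 27.8% and 19.2%, and without ISC replicate 2 it was 16.9% and 9.98%. Without enterocyte replicate 1 it was 17.6% and 11.5%, and without enterocyte replicate 2 it was 17.5% and 10.6%. Without E12.5 replicate 1 it was 13.6% and 9.49%, and without E12.5 replicate 2 it was 13.7% and 9.96%. These settings also change how many members there are. In the same order, the counts above were 14025, 6877, 9978, 4717, 6481, 5144, 6047 and 5320. The count below rose from 736 to between 1102 and 5292 without any 1 of the libraries, and was highest without E14.5 replicate 2. There 17.9% of members and 23.1% of regions called in all 8 were below.

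Between enterocytes and ISC, too, the sign of the median difference changed with the scale. Both enterocyte libraries lay above both ISC libraries at 19.4% of members, against a background of 17.4%, and below at 9.27%, against 9.81%. Scaled to the tags in regions called in all 6 later libraries the shares were 15.9% above, against 14.6%, and 17.9% below, against 19.8%. Per kb called they were 0.0421% above, against 0.0478%, and 66.3% below, against 62.9%. The median log2 difference of enterocyte minus ISC was 0.09 in RPM, -0.01 scaled to the tags in regions called in all 6 later libraries and -0.35 per kb called. Here the smallest p that an exact permutation test could reach is 0.333, and none was made. As a description across members, which are not independent replicates, the Spearman correlation of fold was 0.57 to 0.58 for the 3 replicate pairs and 0.51 to 0.60 for the 12 pairs of different groups. The libraries of each pair share the background of the same sequence. In regions called in all 8 the same correlations were 0.66 to 0.67 and 0.59 to 0.70.

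Members lay on every autosome at a similar share. Of the regions called in the later libraries, members made up from 29.8% on chromosome 19 (Wilson interval 28.0 to 31.6) to 34.0% on chromosome 16 (32.3 to 35.7). Their density ranged from 8.89 per Mb on chromosome 14 to 12.4 per Mb on chromosome 11, with the end of the last region as the chromosome length. The regions called in all 8 varied more, from 7.59 to 12.8 per Mb.

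Within chromosomes, members were spread more evenly than the regions called in all 8. In 1 Mb windows the variance of the count over its mean was 4.27 for members and 7.49 for regions called in all 8, and in 100 kb windows it was 1.38 and 1.75. Of the 1 Mb windows, 2.61% held no member and 14.2% no region called in all 8. Members made up 55.2% of the regions called in the later libraries in the sparsest of 5 equal groups of 1 Mb windows (1 to 9 such regions each), and 28.1% in the densest group (58 to 90). The share with peaks in both E12.5 libraries went the other way, from 13.6% to 33.3%. Each E12.5 library showed this alone, with a peak at 33.0% of such regions in the sparsest windows and 55.7% in the densest for replicate 1, and at 25.5% and 49.5% for replicate 2.

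Regions in sparse windows were also shorter, with a median called length of 545 bp against 738 bp in E14.5 replicate 1. In the shortest of 3 length classes the member share still fell from 65.9% to 43.3% from the sparsest to the densest windows, and in the middle class from 47.8% to 28.7%. In the longest class it fell from 27.0% of 315 regions to 19.0%, with the lowest share, 17.2%, in the middle group of windows. The median fold in E14.5 replicate 1 was higher in the sparsest windows, 7.81 against 6.34, and the median of the lowest score percentile was 38.9 against 42.7. With lists of equal length the shares were 31.6% and 11.4%. What the sparse windows hold in sequence or genes was not analysed here.

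**Figure D4:**
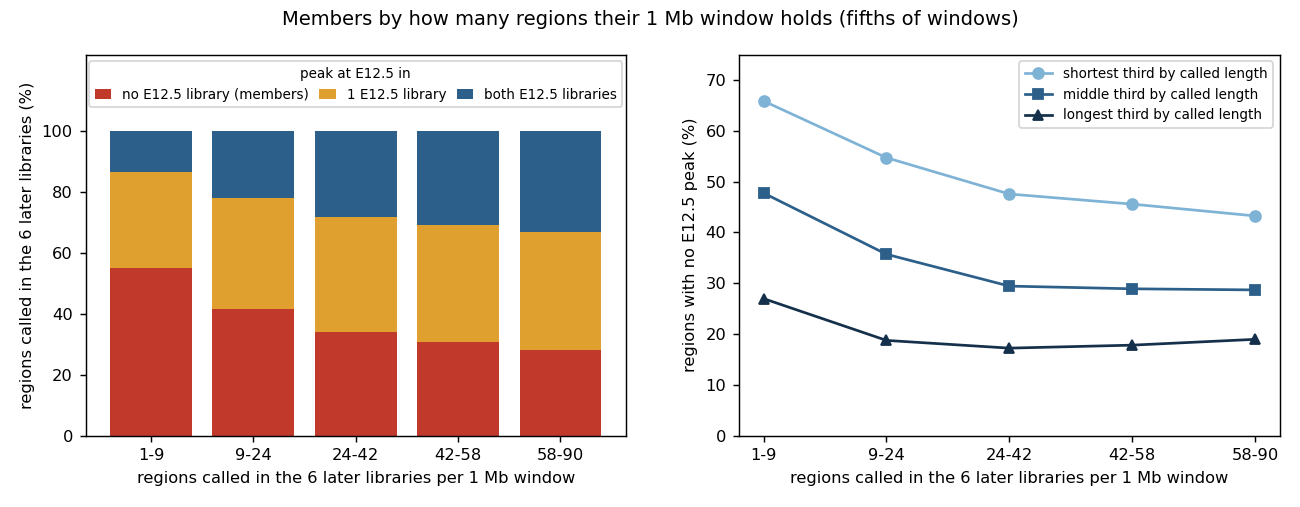
Groups of 1 Mb windows, 5 of equal size, by the number of regions called in the 6 later libraries that they hold (x axes). Left, the percent of these regions with a peak in no, 1 or both E12.5 libraries, where members fall from 55.2% to 28.1%; right, the percent without an E12.5 peak within 3 classes of called length, where the shortest class falls from 65.9% to 43.3%.

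In genome order, members followed members only slightly more often than their share among members and regions called in all 8. This order does not measure clustering along the chromosome. For that, the member counts had a variance over mean of 1.38 in 100 kb and 4.27 in 1 Mb windows. The median gap from a member to the nearest other member was 23230 bp, and from a region called in all 8 to the nearest other one it was 19506 bp. Taking both classes in genome order, a member was followed by a member in 54.2% of cases, where members made up 51.6% of the regions, and a region called in all 8 by its own kind in 51.2% of cases, where they made up 48.4%. The excess was thus 2.58 and 2.74 percentage points. It fell to 1.03 points without E12.5 replicate 1, to 1.15 points without replicate 2 and to 1.76 points without enterocyte replicate 1. It was 4.03 points when members with an E12.5 peak within 1 kb were left out, and 4.45 points with lists of equal length. Among all regions called in the later libraries, members formed 17234 runs, of which 11608 were of 1 member. Runs of 5 or more held 6.90% of the members, and 4.82% of the regions called in all 8 lay in such runs of their own. Members made up 32.0% of the regions called in the later libraries, and those called in all 8 made up 30.0%. The run shares to be expected from these class shares were not computed. The longest run of members was 15, and that of regions called in all 8 was 25.

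The 3 longest runs of members lay on chromosomes 9, 8 and 6. The run of 15 spanned 1293 kb of chromosome 9, from 4838588 to 6131244. All lists together held 106 regions there, of which 5 had a peak in E12.5 replicate 1 and 3 in replicate 2. The run of 13 spanned 679 kb of chromosome 8, from 58993084 to 59671802, with 14 and 6 of 106 regions called in the E12.5 replicates. The run of 12 on chromosome 6, from 95418628 to 95661815, was the most compact of the 3 at 243 kb, with E12.5 peaks at 2 and 5 of its 83 regions. Members of these runs held 14 to 134 tags per later library, at medians of 40 to 46. So the runs were not free of E12.5 peaks. By the definition of a run, those peaks could lie only at regions that at least 1 later library lacked.

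Windows of 100 kb held up to 9 members. That at 4500001 to 4600000 on chromosome 2 held 9 members, 2 regions with 1 E12.5 peak and none called in all 8. That at 95400001 to 95500000 on chromosome 6 held 8 members, 1 region with 1 E12.5 peak and none called in all 8, and overlaps the chromosome 6 run. Windows at 151200001 on chromosome 4, 136800001 on chromosome 5 and 127800001 on chromosome 7 also held 8 members each, with 2 or 3 regions called in all 8. On chromosome 11 the window at 114300001 to 114400000 held 7 members and no region called in all 8. In the chromosome 2 stretch, the 9 members ran from 4508554 to 4600263 and held 21 to 409 tags per later library.

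The most tags there fell on the member at 4528676 to 4533516. It held 87 and 133 tags at E14.5, 72 and 121 in ISC, and 409 and 290 in enterocytes. Both enterocyte libraries were higher than the other 4, but the called length was 4841 and 2743 bp in enterocytes against 927 to 1234 bp elsewhere. An E12.5 peak lay 423 bp from it. Its neighbour at 4524091 to 4525487 had no such step in enterocytes, with 91 and 111 tags at E14.5, 89 and 138 in ISC and 107 and 114 in enterocytes. In RPM ISC replicate 2 was the highest library there, at 4.39, and enterocyte replicate 1 the lowest, at 2.47. The nearest E12.5 peak to that one was 8452 bp away.

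**Figure D5:**
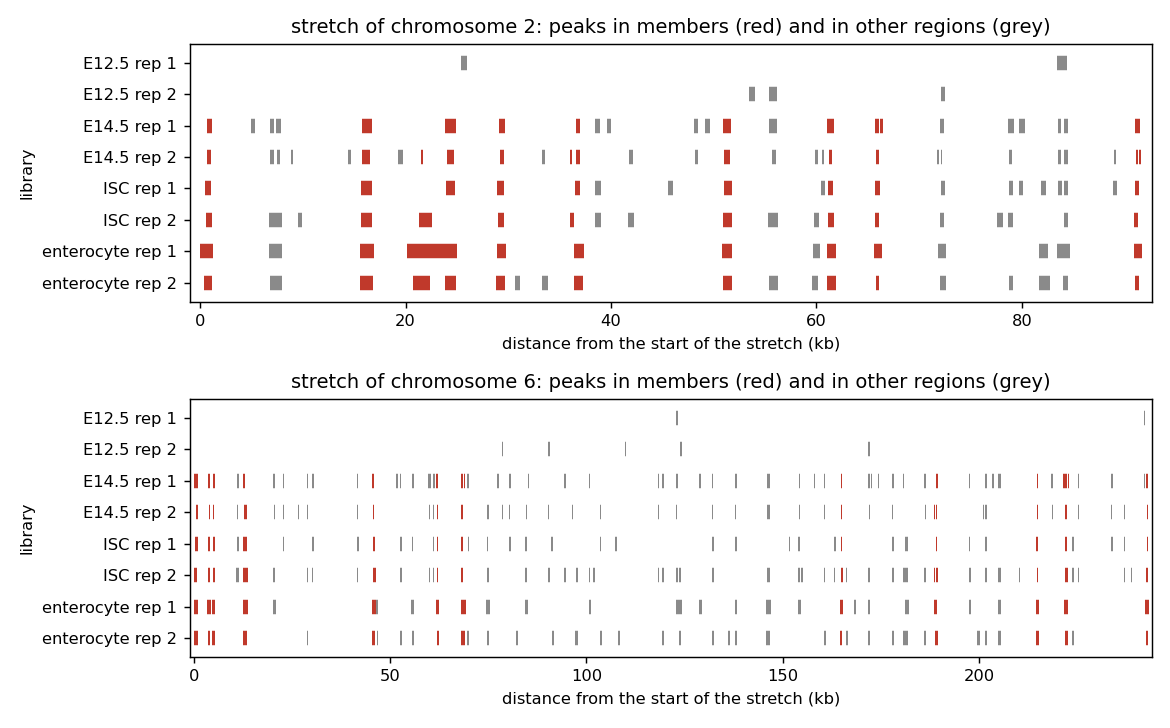
Peaks of each library (rows) along the chromosome 2 stretch of 9 members and the chromosome 6 run of 12 members (x axes, kb from the start of the stretch), in red where they belong to a member and in grey where they do not. The E12.5 rows hold peaks at 2 and 3 of 35 regions on chromosome 2 and at 2 and 5 of 83 regions on chromosome 6, none of them in a member.

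Some E12.5 peaks lay near a member without touching it. The median distance to the nearest peak of either E12.5 library was 4342 bp, with 623 members (2.38%) closer than 200 bp, 3934 (15.1%) closer than 1 kb and 14559 (55.7%) closer than 5 kb. These distances were not set against those of other regions, so they describe the members and show no trait particular to them. Without the members that had an E12.5 peak within 1 kb, 22194 were left. For the regions named next, members with an E12.5 peak within 5 kb or over 500 tags in a library were passed over, which left 11566.

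The member with the highest lowest percentile over the 6 later lists was at 28405561 to 28407881 on chromosome 8. It held 138 and 108 tags at E14.5, 114 and 154 in ISC, and 164 and 140 in enterocytes. Its fold was 9.82 and 14.04, 7.24 and 9.55, and 8.16 and 6.07 in the same order, and the nearest E12.5 peak was 22061 bp away. In RPM these values were 3.99 and 3.10, 3.52 and 4.90, and 3.78 and 3.58, so the groups overlapped. The second, at 57122394 to 57123696 on chromosome 15, held 102 and 91, 66 and 118, and 129 and 110 tags, with no E12.5 peak within 39926 bp. ISC replicate 1 was the lowest library there and enterocyte replicate 1 the highest in tags.

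The third and eighth both lay on chromosome 6. That at 27312860 to 27314111 held 78 and 80, 72 and 77, and 114 and 99 tags in the same order of libraries. That at 25618791 to 25620032 held 93 and 82, 71 and 88, and 98 and 92 tags, and its nearest E12.5 peak was 73668 bp away, the farthest among these 8 members. In RPM the E14.5 and adult values overlapped at both.

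The fourth was on chromosome 8 at 38543190 to 38544485, with 69 and 100 tags at E14.5, 83 and 92 in ISC and 113 and 87 in enterocytes. Next came a member on chromosome 15, at 82300592 to 82301710, with 86 and 82, 67 and 78, and 89 and 96 tags. The sixth, at 56805773 to 56807223 on chromosome 1, held 80 and 73, 65 and 85, and 101 and 115 tags. These 3 had E12.5 peaks no closer than 17069, 10542 and 9154 bp. The seventh, at 5616473 to 5617621 on chromosome 9, lies within the run of 15 members and held 84 and 70, 72 and 85, and 94 and 95 tags. At all 8 of these members the E14.5 and adult values overlapped in RPM.

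The widest members with no E12.5 peak within 5 kb and at most 500 tags had low fold. That at 77282743 to 77288117 on chromosome 5 was 5375 bp wide and held 200 and 231 tags at E14.5, 235 and 397 in ISC, and 462 and 393 in enterocytes, at a fold of 3.38 to 4.82. That at 140558222 to 140563527 on chromosome 4 was 5306 bp wide and held 243 and 181, 116 and 178, and 461 and 414 tags, at a fold of 2.22 to 5.52. The third, at 98471318 to 98476619 on chromosome 15, was 5302 bp wide and held 290 and 233, 220 and 283, and 279 and 309 tags, at a fold of 2.43 to 3.66. In the first of these, all 4 adult libraries lay above both E14.5 libraries in RPM, and in the others the groups overlapped. But the called length of the first was also greater in all 4 adult libraries. It was 2984 to 5183 bp there, against 2044 and 1713 bp at E14.5. Over 500 tags were reached by 8 members only. The highest of them was at 125415077 to 125421610 on chromosome 8, with 572 and 351, 205 and 576, and 674 and 642 tags.

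At the edges of the rule the values were small. The members just inside it passed the caller's cutoff by the least margin. They were on chromosome 1 (131250091 to 131250718) and chromosome 10 (23860514 to 23861171), with 16 tags in E14.5 replicate 1 and 32 tags in enterocyte replicate 1. Just outside it, a region of chromosome 1 (189958677 to 189959836) and another of chromosome 12 (63487678 to 63488499) each had 31 tags in an E12.5 replicate 1 peak, at a fold of 5.30 and 4.42, and 25 to 74 and 25 to 68 tags in the later libraries. Of the 31019 regions with 1 E12.5 peak, 59.0% had it in replicate 1 and 41.0% in replicate 2.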

How the data were processed

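Each of the 8 libraries was a peak list, not pooled, on mm9. The submitters' processing notes name Bowtie 1.1.2, SAMtools 1.2 and bcl2fastq 1.8.4. MACS 1.4.2 made the lists, per the file headers, with no control and a p cutoff of 1e-05, against a regional background of 10000 bp, from tags of 180 bp. Tag counts per peak are whole numbers as the authors deposited them, not normalized. The score, 10 times the negative log10 of the p-value, and the fold, a ratio to local background, are the authors' values per the file headers and were used within a list only.

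Lists were merged at 1 bp overlap (Python 3.11.15, pandas 2.3.3, NumPy 2.4.6, SciPy 1.17.1). For each region and library, tags and called lengths were summed, and fold and score taken from the best-scoring peak. RPM values, computed here, are tags over the library total times 1000000. To check the code of the member rule, the E12.5 peaks of 200 regions called in all 8 libraries were removed, and all 200 were returned. Such regions meet the rule by definition, so this says nothing about how well gains are found. The members and lists were chosen with earlier results of these data known. No test over replicates was made: the rule used the peak calls, and tags are counted over intervals that each library set for itself. Named regions were the 8 members with the highest lowest score percentile and the 3 widest (no E12.5 peak within 5 kb, at most 500 tags), the 3 longest runs, the 100 kb windows with most members, and regions at the edges of the rule. The 3 members of most tags, the neighbours in the chromosome 2 stretch and the density groups were chosen after the values were seen. Genes and sequences were not analysed here, since the tables at hand are of another build.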

Additional observations from a re-analysis of the deposited data

Results flagged for a closer look

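On chromosome X, outside the autosomal rule, 11 regions had the same pattern of a peak in every later library and in neither E12.5 library. They were singled out because they lie outside the data described above. X held 4470 merged regions, of which 34 were called in all 8 libraries. On Y, 0 of 56 regions had the pattern.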

How the results depend on the processing

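The number of members was 3190 with lists of equal length, 11460 with the stricter 50% of each list and 6461 where a 50% cover of the region by peaks was asked for, and 27951 to 44418 with a library left out. As shares of the regions called in the later libraries of each setting, these were 14.3%, 33.3%, 32.5% and 32.9% to 54.4%, against 32.0% with the full lists. Of the first 3 counts, 90.0%, 52.9% and 70.8% overlapped a member of the full lists. The ratio of called length was 1.25, 1.28 and 1.12 under those 3 settings and 1.27 with summit intervals, and 1.24 to 1.52 with a library left out; it stayed above 1 in all of these. The ratio of fold, 1.03, turned to 0.962 with equal lists and was 1.02 to 1.05 otherwise, the best peak by fold and each library left out included. Members followed members by 4.45 points above their share with equal lists and 1.87 with 50% coverage, by 4.03 without members within 1 kb of an E12.5 peak, and by 1.03 to 2.58 with a library left out. The ratio of sparse to dense windows, the 1 kb limit for clustering and all settings for fold other than the best peak by fold were chosen after seeing the data. The ratio of member shares in the sparsest to the densest windows, 1.96, was 2.76 with equal lists, 1.78 with stricter lists, 2.07 with merging within 500 bp, 1.81 with 50% coverage, 1.76 with summit intervals, and 1.48 to 1.96 with a library left out. Members with all adult libraries above E14.5 numbered 419 with equal lists (13.1%, against 9.33% of regions called in all 8). They numbered 1877 with stricter lists (16.4%, against 8.64%) and 233 with 50% coverage (3.61%, against 2.28%). Per kb called there were 2 (0.00765%, against 0.00408%). With a library left out there were 4717 to 14025 (13.6% to 49.0%, against 9.49% to 38.7%). Members with all adult libraries below numbered 68 with equal lists (2.13%, against 3.00% of regions called in all 8) and 251 with stricter lists (2.19%, against 3.37%). Scaled to tags in regions called in all 6 later libraries there were 2049 (7.84%, against 12.7%). Per kb called there were 8997 (34.4%, against 35.9%). With a library left out, 1102 to 5292 were below (2.94% to 17.9%, against 3.47% to 23.1%). Shorter lists and fewer libraries change these counts by construction, and other causes were not tested.

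Replicate numbers are shared between groups, but nothing in the labels pairs them, and differences between replicates 1 and 2 correlated by 0.03 to 0.04 between groups across members. With the replicate block, that is within each replicate number, adult values were above E14.5 at 5374 members (20.6%, against 12.6% of regions called in all 8) and below at 1227 (4.70%, against 6.32%). The block asks for less than the comparison of all adult with both E14.5 libraries. Its counts therefore cannot fall below the 3922 and 736 of that comparison.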
